A study of Homo sapiens with 12 samples.

Results

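The 10 genes described here encode integrins and the cytoplasmic proteins that bind them: the kindlins FERMT1, FERMT2 and FERMT3, talin 1 (TLN1), the adaptors paxillin (PXN) and leupaxin (LPXN), the integrin alpha chains ITGA2 and ITGA5, and the beta chains ITGB1 and ITGB3. They are 10 of 18852 genes measured on Illumina bead arrays, and all 10 had at least 1 probe. Where a gene had several probes, the brightest by mean log2 intensity over the 12 arrays stood for it. FERMT1 and LPXN were chosen from earlier results of these same arrays, in which FERMT1 was named under perifosine and LPXN under sorafenib. Their values are therefore given as a description, without p-values. Where either gene is said to pass or miss the threshold, that too is only a description. The other 8 genes belong to the same families or bind their members. They too were chosen with earlier results of these arrays known, and their p-values are to be read with that limit.

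The arrays came from HD-MyZ, a cell line derived from a patient with Hodgkin lymphoma, grown as a single line in culture medium with serum. Total RNA was taken after 24 hours in 4 groups of 3 arrays each, with replicates lettered A, B and C. The control cells are labelled only as control, with no vehicle named. The other groups received 10 µM perifosine, 5 µM sorafenib, or both together (the combination). Perifosine is an alkylphospholipid that blocks membrane recruitment of the kinase AKT, and sorafenib inhibits RAF kinases and several receptor tyrosine kinases.

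Integrins are pairs of an alpha and a beta chain that hold cells to matrix proteins. Talin and a kindlin bind the short cytoplasmic tail of the beta chain and together switch the integrin to its binding state, and paxillin-family adaptors then gather kinases and actin linkers at the site. The chains ITGA2 and ITGB1 form a collagen receptor, ITGA5 and ITGB1 a fibronectin receptor, and ITGB3 pairs with ITGAV in many cells and with ITGA2B in platelets. FERMT3 is the kindlin of blood cells, FERMT1 that of epithelia, and FERMT2 is widespread. Leupaxin is the paxillin relative best known from blood cells and osteoclasts.

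Promoter windows of 250 bases before to 50 bases after the annotated start were available from RefSeq (GRCh38.p14) for 8 of the 10 genes, all but FERMT1 and ITGB3. The windows of ITGA5 and of the more upstream start of LPXN are shown because both genes were lower with the combination than with perifosine alone and both windows hold a TGANTCA motif. That motif, with N as any base, covers the binding sites of AP-1, a factor whose FOS and JUN subunits act downstream of RAF and ERK. Not every match need be such a site. Capitals mark the motif. The ITGA5 window lies at chr12:54419217-54419516 on the minus strand and the LPXN window at chr11:58578084-58578383 on the minus strand.
ITGA5: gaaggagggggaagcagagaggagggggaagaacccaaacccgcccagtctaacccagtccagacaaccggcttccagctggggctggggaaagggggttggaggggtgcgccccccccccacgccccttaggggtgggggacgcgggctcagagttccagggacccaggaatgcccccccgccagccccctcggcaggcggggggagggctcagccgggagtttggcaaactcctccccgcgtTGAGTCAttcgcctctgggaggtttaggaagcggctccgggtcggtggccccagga
LPXN: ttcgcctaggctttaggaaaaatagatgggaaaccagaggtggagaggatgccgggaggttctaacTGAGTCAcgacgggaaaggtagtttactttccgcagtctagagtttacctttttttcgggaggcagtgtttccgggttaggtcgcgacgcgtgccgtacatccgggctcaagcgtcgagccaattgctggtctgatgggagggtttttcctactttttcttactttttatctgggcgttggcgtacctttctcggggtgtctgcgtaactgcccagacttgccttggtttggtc
The first base of the motif lies 6 bases upstream of the ITGA5 start and 184 bases upstream of this LPXN start. One other gene, FERMT3, had a match in 1 of its windows, 69 bases upstream. Those of FERMT2, PXN, TLN1, ITGA2 and ITGB1 held none, and nor did the other LPXN window. Across all 35116 windows of 300 bases, 7.71% held the motif, which reads the same on both strands. The motif was chosen after the values were seen, and a match in letters says nothing of whether a factor was bound. ITGA2, also lower with the combination than with perifosine, had no match, and FERMT3, which had a match, passed in no comparison. Whether the motif bears on any of these differences was not tested.

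The intensities were linear, spanned 170 to 71906, centred on a median of 322, and had no background subtracted, so that fold changes of dim genes are understated. Intensities below 512 (9 on the log2 scale) are called near background here. The number of arrays limits the precision, and since the labels do not state separate cultures, the p-values only weigh groups against the spread among these 12 arrays. An array was said to stand apart when its mean correlation with its group mates fell more than 0.005 below that of the mates with each other, which held for control C (0.985), sorafenib B (0.963) and combination A (0.985). Results that rest on them are given with and without these 3 arrays. They were picked from these same values for lying apart, so leaving them out tends to narrow the spread. A result that passes only without them is therefore no independent support. Of the Hodgkin and B lineage markers, 9 of 12 measured were near background, including TNFRSF8 (CD30) at 252 to 308, PTPRC at 270 to 354 and PAX5 at 223 to 323, whereas FUT4, TRAF1 and JUNB were above it. Near background too were 6 of 7 markers of other blood cells and 5 of 6 of epithelium, with CD68 and KRT19 the exceptions. The stromal markers THY1, DCN and VIM were above background and the other 3 of 6 were not.

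FERMT1, the kindlin of epithelia, stood at about the same intensity in every group except perifosine alone. It measured 3026, 3700 and 3319 on the control arrays A, B and C, and 7310, 7033 and 8236 on the perifosine arrays. With sorafenib it measured 3197, 3561 and 3155, and with the combination 3202, 3245 and 3256. All 3 perifosine arrays lay above all 9 others, and the other 3 groups overlapped. The group means were 3348 ± 338 (SD, n = 3) for control, 7526 ± 630 for perifosine, 3305 ± 223 for sorafenib and 3234 ± 28.5 for the combination. The log2 difference was 1.17 (SE 0.11, a 2.25-fold ratio) for perifosine against control and -1.22 (SE 0.11) for the combination against perifosine. Sorafenib and the combination differed from control by -0.02 and -0.05, with 95% intervals of -0.25 to 0.21 and -0.28 to 0.18. Because these are cultures measured in bulk, fewer cells expressing a gene and less RNA per cell cannot be told apart, here or for the genes that follow.

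**Figure D1:**
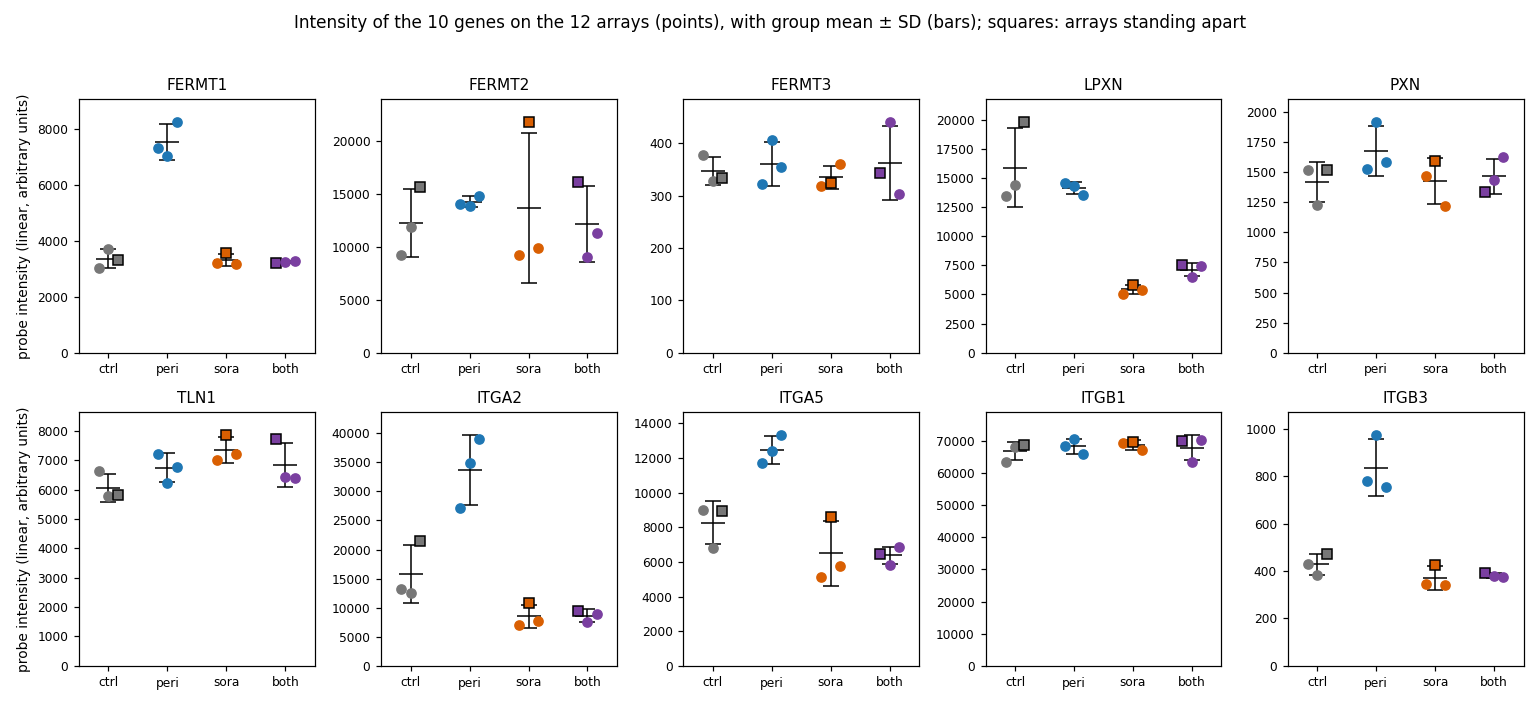
Linear probe intensity (vertical axis, arbitrary units, from 0) of the 10 genes in the control (ctrl), perifosine (peri), sorafenib (sora) and combination (both) groups. Points are arrays, squares the 3 arrays that stood apart, and bars the mean and SD of 3 arrays. FERMT1 at 7033 to 8236 and ITGB3 at 755 to 973 were set off with perifosine alone, and LPXN lay at 5063 to 7500 on the 6 arrays with sorafenib.

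FERMT2, the widespread kindlin, passed the test in none of the comparisons and varied more within groups than between them. It measured 9237, 11869 and 15637 on the control arrays, 14083, 13845 and 14830 on the perifosine arrays, 9210, 21786 and 9860 on the sorafenib arrays, and 16076, 9043 and 11315 on the combination arrays. The highest array of each of the control, sorafenib and combination groups was among those standing apart, namely C of control, B of sorafenib and A of the combination. The log2 difference was 0.25 (SE 0.31, adjusted p = 0.958) for perifosine against control and -0.27 (SE 0.31, adjusted p = 0.819) for the combination against perifosine. Without the 3 arrays the latter became -0.49 (SE 0.13, adjusted p = 0.0448), past the threshold. FERMT3, the kindlin of blood cells, was near background on all 12 arrays, at 304 to 441 by its brighter probe and 228 to 318 by the other. Its log2 differences lay between -0.05 and 0.10 in the 6 comparisons, none past the test. FERMT1 and FERMT2 were above background on all 12 arrays.

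Talin 1, which binds the integrin tail beside the kindlin, measured 6630, 5783 and 5810 on the control arrays and 7012, 7863 and 7212 with sorafenib, groups that did not overlap. The log2 difference of 0.28 (SE 0.11, 95% interval 0.04 to 0.52) did not pass the test (adjusted p = 0.249). The perifosine arrays at 7225, 6237 and 6794 and the combination arrays at 7720, 6432 and 6390 overlapped the control. Their log2 differences from control were 0.15 (adjusted p = 0.897) and 0.17 (adjusted p = 0.621).

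Leupaxin had the lower intensities wherever sorafenib was present. LPXN measured 13435, 14436 and 19809 on the control arrays and 14571, 14333 and 13571 with perifosine. It measured 5063, 5828 and 5391 with sorafenib and 7500, 6468 and 7415 with the combination. The 6 arrays with sorafenib lay at 5063 to 7500 and the 6 without at 13435 to 19809, with no overlap. The log2 difference from control was -1.53 (SE 0.14) for sorafenib and -1.14 (SE 0.14) for the combination, ratios of 0.346 and 0.454. Control C, at 19809, is an array that stood apart. Without the 3 such arrays the differences were -1.41 (SE 0.12) and -1.01 (SE 0.12). Perifosine alone differed from control by -0.15 (95% interval -0.45 to 0.16), and the combination from perifosine by -0.99 (SE 0.14). The combination lay above sorafenib alone on every array, by 0.39 (SE 0.14). That difference was not past the threshold, and neither was the interaction of the drugs, meaning what perifosine did in the presence of sorafenib less what it did alone, at 0.54 (95% interval 0.11 to 0.97).

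Paxillin, the relative from which leupaxin takes its name, passed the test in none of the comparisons. PXN measured 1517, 1231 and 1516 on the control arrays and 1466, 1597 and 1220 with sorafenib, a log2 difference of 0.00 (95% interval -0.31 to 0.31, adjusted p = 0.993). With the combination it measured 1337, 1433 and 1628. The perifosine arrays at 1524, 1919 and 1589 all lay just above the highest control array, but the log2 difference of 0.24 (SE 0.14) did not pass (adjusted p = 0.84). The difference between the responses of LPXN and PXN was not itself tested.

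Both alpha chains had their highest intensities with perifosine alone and were lower when sorafenib was added. ITGA2, the alpha chain of a collagen receptor, measured 13292, 12499 and 21549 on the control arrays and 27154, 34877 and 38972 with perifosine. It measured 7014, 10755 and 7712 with sorafenib and 9503, 7485 and 8947 with the combination. The perifosine arrays lay above all others, the 6 arrays with sorafenib below all others, and control between. The combination was lower than perifosine, at a log2 difference of -1.95 (SE 0.23, adjusted p = 0.000868) and a ratio of 0.258. This call held in all 21 alternative settings, but several of them could not move the difference from -1.95. Among these were the mean of probes, since ITGA2 has a single probe, and fits without a control or sorafenib array. Against control, the difference of 1.12 with perifosine (SE 0.23, adjusted p = 0.0818), -0.87 with sorafenib (SE 0.23, adjusted p = 0.0745) and -0.83 with the combination (SE 0.23, adjusted p = 0.0999) fell short of the threshold. Control C, at 21549, and sorafenib B, at 10755, are arrays that stood apart. Without the 3 such arrays all these differences passed, at 1.37 (SE 0.15, adjusted p = 0.000792), -0.81 (SE 0.16, adjusted p = 0.0157) and -0.66 (SE 0.16, adjusted p = 0.0337), and the combination differed from perifosine by -2.02 (adjusted p = 8.83e-06). The perifosine difference also passed without control C alone (adjusted p = 0.0347) or sorafenib B alone (adjusted p = 0.0211). The sorafenib and combination differences passed without sorafenib B alone (adjusted p = 0.0283 and 0.0303). Sorafenib B is no part of the perifosine or combination contrasts with control. Without it those differences stayed at 1.12 and -0.83, and the SE, which rests on the spread shared by all groups, went from 0.23 to 0.2. Of 21 alternatives, the perifosine, sorafenib and combination differences from control passed in 4, 3 and 3. The interaction, at -1.08 (SE 0.32), did not pass (adjusted p = 0.87), so a perifosine effect that differs with sorafenib was not shown for ITGA2 over all genes tested.

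ITGA5, the alpha chain of the fibronectin receptor, measured 9007, 6810 and 8956 on the control arrays and 11694, 12376 and 13314 with perifosine. With sorafenib it measured 5110, 8603 and 5761, and with the combination 6449, 5824 and 6840. The perifosine arrays again lay above all others, whereas sorafenib B reached the control range and the control and sorafenib groups overlapped. The combination was lower than perifosine, at -0.97 (SE 0.18, adjusted p = 0.0158), a ratio of 0.511. This call ended without perifosine A (adjusted p = 0.0504), perifosine B (0.065), perifosine C (0.0842), combination A (0.0564) or combination B (0.0675), with the difference between -1.01 and -0.91. The difference from control was 0.60 with perifosine (SE 0.18, adjusted p = 0.328) and -0.37 with both sorafenib (adjusted p = 0.368) and the combination (adjusted p = 0.444). The perifosine difference passed in 2 of 21 alternatives, among them the fit without the 3 arrays, at 0.67 (adjusted p = 0.031). The sorafenib difference passed in 1 of 21, without sorafenib B alone, at -0.59 (adjusted p = 0.0446). Without the 3 arrays it was -0.53 and did not pass (adjusted p = 0.0668). The interaction, at -0.60 (SE 0.26), did not pass either (adjusted p = 0.991).

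ITGB1, the beta partner of both alpha chains, had 4 probes. The brightest read 63470 to 70515 on the 12 arrays, near the highest intensity of the whole table (71906), where differences may be compressed. Its group means ran from 66767 ± 2816 in control to 68779 ± 1408 with sorafenib, and no log2 difference left -0.05 to 0.04, none of them past the test. A second probe, chosen after the first was seen to be near the top, read 27041, 31445 and 55240 in control and 34252, 41044 and 34415 with perifosine. It read 38419, 69935 and 40507 with sorafenib and 65914, 32583 and 37650 with the combination. The highest values of the control, sorafenib and combination groups were again control C, sorafenib B and combination A. By that probe the largest of the 6 differences was 0.40 for sorafenib against control (SE 0.32, 95% interval -0.30 to 1.10, adjusted p = 0.64). The remaining probes were dimmer, one at 460 to 804 and one at 223 to 285.

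**Figure D2:**
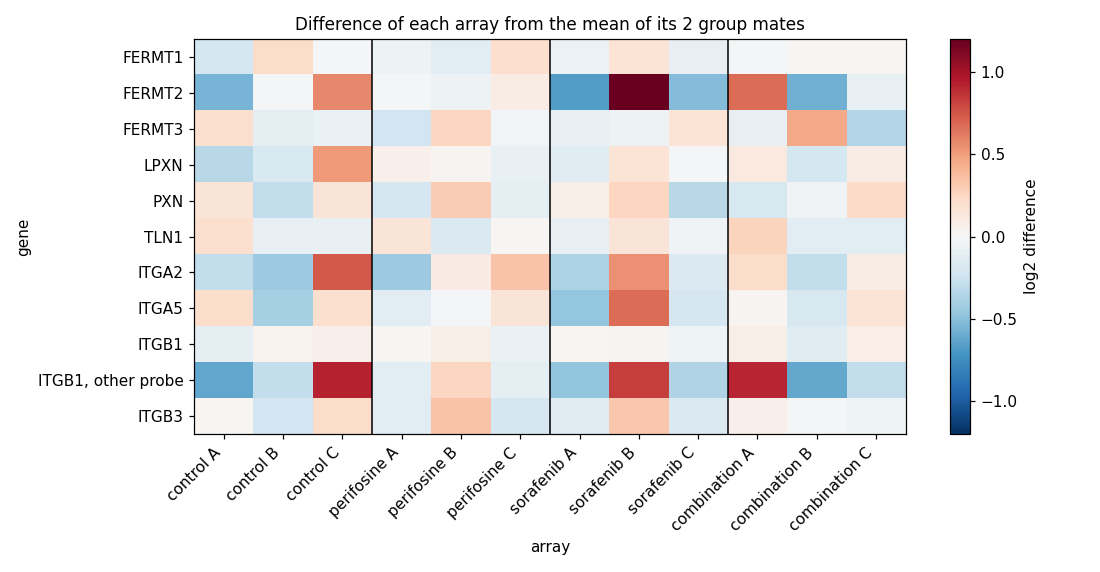
Log2 difference of each array (columns) from the mean of its 2 group mates (rows are genes, with the second ITGB1 probe as its own row). Red is above the mates and blue below. On control C, sorafenib B and combination A, FERMT2 deviates by 0.58, 1.19 and 0.67.

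The plot of differences from group mates shows how the 3 arrays that stood apart touched these genes. On control C, sorafenib B and combination A the second ITGB1 probe deviated by 0.92, 0.83 and 0.91, and FERMT2 by 0.58, 1.19 and 0.67. ITGA2 deviated by 0.74 on control C and 0.55 on sorafenib B, ITGA5 by 0.67 on sorafenib B, and LPXN by 0.51 on control C. Over all genes the 95th percentile of these deviations was 0.48 on control C, 0.89 on sorafenib B and 0.48 on combination A, so on sorafenib B only FERMT2 of the genes named here lay beyond it. What sets these arrays apart was not tested.

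ITGB3, the beta chain of the vitronectin receptor, was near background except with perifosine alone. It measured 430, 383 and 471 on the control arrays and 779, 973 and 755 with perifosine. With sorafenib it measured 343, 427 and 341, and with the combination 393, 378 and 373. All 3 perifosine arrays lay above 512 and the other 9 below it. ITGB3 rose with perifosine by 0.96 (SE 0.13, adjusted p = 0.0128), from 428 ± 44.3 to 836 ± 119 (n = 3). Background correction by normexp gave 1.31. The call ended without control A (adjusted p = 0.0626), control B (0.0764), perifosine A (0.0502) or perifosine B (0.0608), the difference being 0.85 to 1.01 in those fits. Against perifosine the combination was lower, at -1.12 (SE 0.13, adjusted p = 0.000894), a call kept in all 20 alternatives that tested the gene. Several of these could not move the difference, such as the mean of probes for this single-probe gene. Sorafenib and the combination differed from control by -0.21 (adjusted p = 0.515) and -0.16 (adjusted p = 0.723). The interaction was -0.91 (SE 0.19) and did not pass (adjusted p = 0.395).

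Counted by comparison, 2 of the 10 genes passed an adjusted p of 0.05 for perifosine against control, FERMT1 and ITGB3, both higher. Over all genes 56 of 18852 passed, or 0.297%. For sorafenib against control 1 gene passed, LPXN, beside 2.25% of all genes. FERMT1 and LPXN were chosen on these contrasts, so nothing is read from either count. For the combination against control 1 gene passed, again LPXN, beside 1.82%. LPXN was chosen under sorafenib on these same arrays, so nothing is read from this count either. For the combination against perifosine 5 passed, FERMT1, LPXN, ITGA2, ITGA5 and ITGB3, all lower, beside 2.2% of all genes, with a median log2 difference of -0.62 over the 10 genes and 0 over all genes. This comparison shares the perifosine arrays with the contrast that chose FERMT1, and its 5 calls include both chosen genes. Nothing is therefore read from this count or this median. All contrasts with control share its 3 arrays, so they are not independent. For the combination against sorafenib 0 of the 10 genes and 0% of all genes passed in limma. At an unadjusted p under 0.05 it called 1 of the 10 and 3.41% of all genes. For the interaction 1 passed, FERMT1 at -1.20, beside 0.0159% of all genes. The interaction contains the contrast on which FERMT1 was chosen, so nothing is read from this count, and the call was lost in 14 of 20 alternatives.

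**Figure D3:**
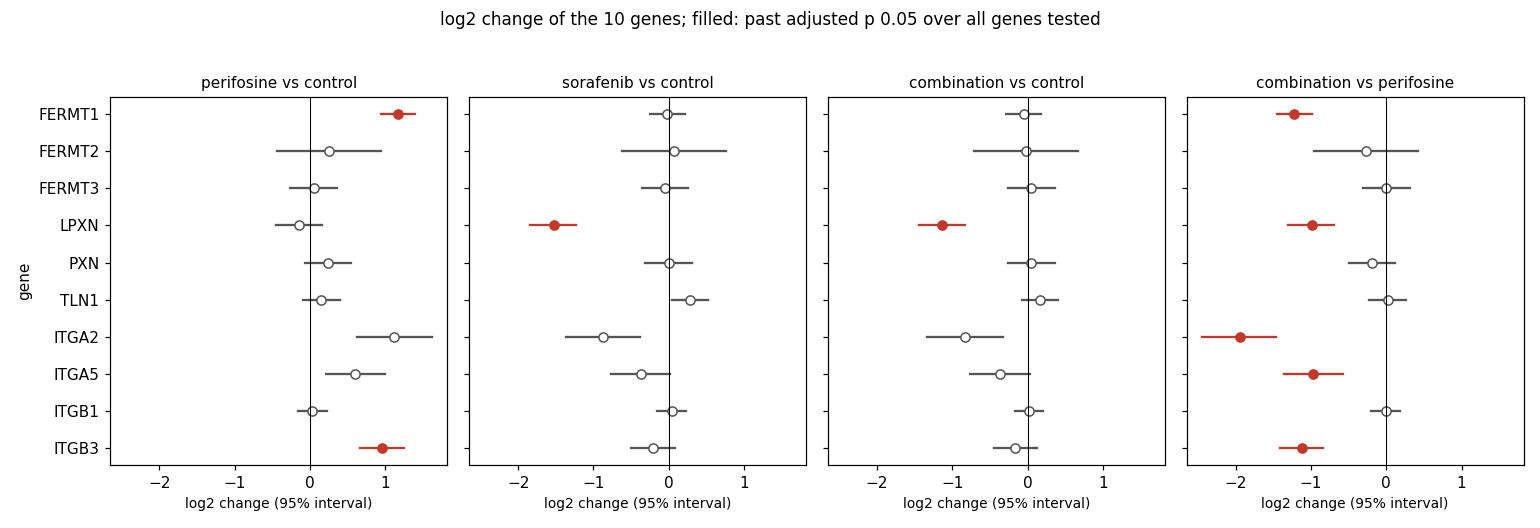
Log2 difference (horizontal axis) of the 10 genes in 4 comparisons, with 95% intervals as lines. Filled red points pass an adjusted p of 0.05 over all genes; those of FERMT1 and LPXN are a description, since these genes were chosen on such changes. In the comparison of the combination with perifosine, the 5 filled points run from -1.95 for ITGA2 to -0.97 for ITGA5.

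Over the 12 arrays, with group differences included, the log2 intensities of FERMT1 and ITGB3 had a Pearson r of 0.93 and those of ITGA2 and ITGA5 of 0.95. These describe shared differences between 4 groups on the same arrays, so no p is given. The genes most like FERMT1 over the 12 arrays, among 9493 named genes left after a dim-gene limit of 9 on the mean log2 intensity and the removal of placeholder symbols, were ARSB (r = 0.963), MMP10 (0.962), BHLHE40 (0.941), WWTR1 (0.94) and LRFN5 (0.935). Those most like LPXN were ESM1 (0.962), FOXQ1 (0.956), KCTD5 (0.947), CLEC2B (0.945) and AEN (0.943).

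Around the 10 genes, 83 of 87 further adhesion genes in 7 lists were measured. The lists were written with earlier results of these arrays known, so nothing is read from their shares beside those of all genes. None of the 16 other integrin alpha chains and none of the 6 other beta chains passed in any of the 6 comparisons, nor did any of 13 kinases, phosphatases and exchange factors such as the focal adhesion kinase gene PTK2. Perifosine against control had 2 of the 83 past the test (2.41%, beside 0.297% of all genes), sorafenib 9 (10.8%, beside 2.25%), the combination 8 (9.64%, beside 1.82%), and the combination against perifosine 7 (8.43%, beside 2.2%). The combination against sorafenib and the interaction had 0. The median log2 difference of the 83 was 0.04 with perifosine and 0.08 with sorafenib, beside 0 for all genes. For these further genes only fits that left out arrays are reported. With only the compared groups fitted, sorafenib calls over all genes went from 425 to 10. Whether the sorafenib calls named below hold in that setting was not examined.

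**Figure D4:**
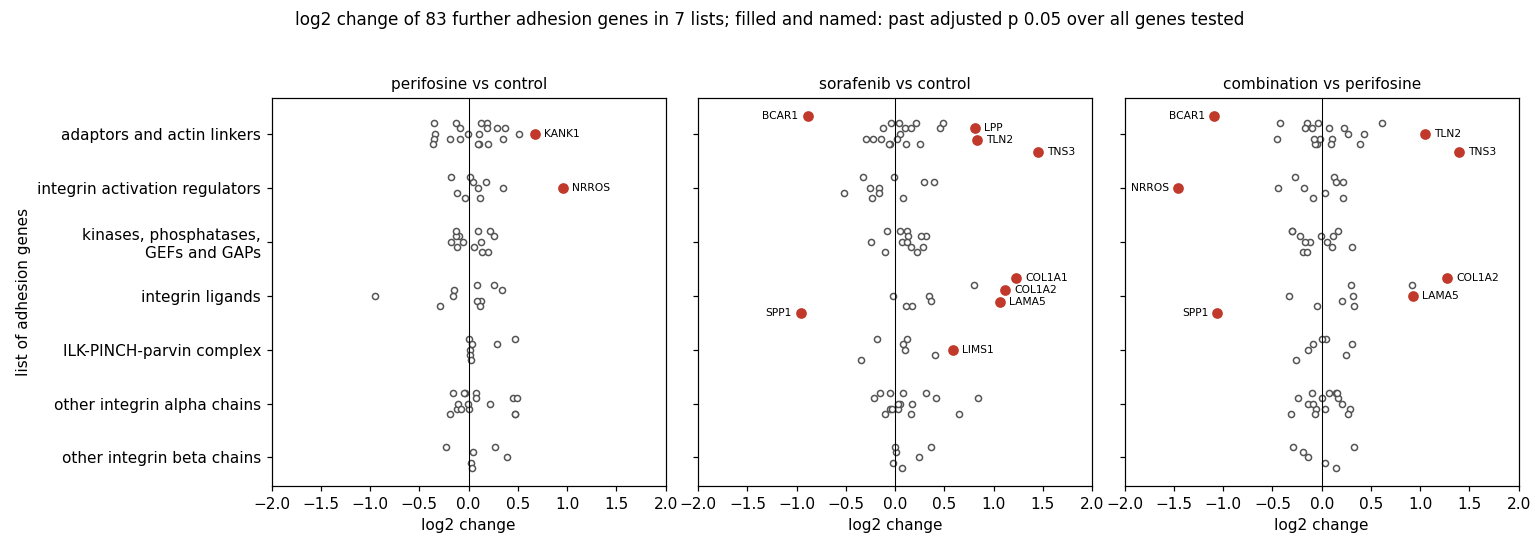
Log2 difference (horizontal axis) of the 83 further adhesion genes by list in 3 comparisons, each point a gene. Filled, named points pass an adjusted p of 0.05 over all genes; the sorafenib panel has 9, from BCAR1 at -0.89 and SPP1 at -0.96 to TNS3 at 1.45.

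Among 21 focal adhesion adaptors, TNS3, TLN2 and LPP were higher and BCAR1 was lower with sorafenib. TNS3, a tensin that ties integrin tails to actin, went from 862 ± 122 to 2380 ± 497 (log2 1.45, adjusted p = 0.0086), and TLN2, the second talin, from 1671 ± 193 to 2970 ± 289 (0.83, adjusted p = 0.00973). BCAR1, the docking protein p130Cas, fell from 6159 ± 464 to 3323 ± 296 (-0.89, adjusted p = 0.00377). LPP, a LIM protein of the zyxin family, was higher by 0.81 (adjusted p = 0.0122), and this ended without control A or control B (highest adjusted p = 0.0586). With the combination against perifosine, BCAR1 was lower, at -1.09 (adjusted p = 0.000473), TNS3 higher by 1.39 (adjusted p = 0.00614) and TLN2 higher by 1.05 (adjusted p = 0.00133), and these calls held with each single array left out. With the combination against control, TNS3 was higher by 1.03 (adjusted p = 0.0389), TLN2 higher by 0.71 (adjusted p = 0.0187) and BCAR1 lower, at -0.58 (adjusted p = 0.0275). Those calls were kept in 3, 8 and 6 of the 12 fits that left out 1 array, with highest adjusted p of 0.131, 0.077 and 0.113. The TNS3 call ended without any single control or perifosine array, sorafenib A, combination A or combination B. The TLN2 call ended without control B, control C, combination B or combination C, and that of BCAR1 without any single control or combination array. The perifosine group mean of BCAR1 was 8772 ± 816. In the ILK complex, which links kindlins to actin, 1 of 7 genes passed, LIMS1 (PINCH1). It rose by 0.59 with sorafenib (adjusted p = 0.0116), where it ranked 9 by size and is named as the only call of its list. With the combination against control it rose by 0.61 (adjusted p = 0.0111), a call ending without combination C (adjusted p = 0.0519).

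Among 10 integrin ligands, 4 passed with sorafenib: the collagen I chains COL1A1 and COL1A2 and the laminin chain LAMA5 were higher, and osteopontin (SPP1) was lower. COL1A2 went from 24340 ± 5237 to 52761 ± 10410 (1.12, adjusted p = 0.00938) and SPP1, a ligand of the ITGB3 receptor, from 1727 ± 278 to 886 ± 128 (-0.96, adjusted p = 0.0122). The COL1A2 call ended without control B (adjusted p = 0.0524). The call of COL1A1, at 1.23 (adjusted p = 0.0247), ended when any single control array, sorafenib A or sorafenib C was left out (highest adjusted p = 0.0805). That of LAMA5, at 1.06 (adjusted p = 0.0209), ended when any single control array was left out (highest adjusted p = 0.0916). With the combination against control, thrombospondin 1 (THBS1) fell from 4821 ± 595 to 1995 ± 305 (-1.28, adjusted p = 0.00939), a call that ended without control B (adjusted p = 0.0546). The perifosine mean of THBS1 was 2488 ± 212. In the same comparison COL1A2 (1.12, adjusted p = 0.00971) and LAMA5 (1.06, adjusted p = 0.0213) were higher and SPP1 was lower (-0.71, adjusted p = 0.0459). COL1A2 lost its call without control B (adjusted p = 0.0567), LAMA5 without any single control or combination array (highest adjusted p = 0.103). SPP1 lost it without any single control or perifosine array, sorafenib A, combination B or combination C (highest adjusted p = 0.157). Against perifosine, the combination had COL1A2 higher by 1.27 (adjusted p = 0.00265) and SPP1 lower, at -1.06 (adjusted p = 0.00427), both kept with each array left out. LAMA5 was higher by 0.93 (adjusted p = 0.0347), but its call was lost without control A or B or any single perifosine or combination array (highest adjusted p = 0.141).

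With perifosine alone 2 further genes passed. NRROS, from the list of integrin activation regulators, anchors latent TGF-beta at the cell surface and so does not act on integrin tails. It measured 1184 ± 199 in control, 2283 ± 213 with perifosine, 824 ± 91.1 with sorafenib and 838 ± 153 with the combination. Its rise with perifosine was 0.96 (adjusted p = 0.0355), a call lost when any one of control B or C, the perifosine arrays, sorafenib A, or combination B or C was left out (highest adjusted p = 0.187). The combination was lower than perifosine, at -1.46 (adjusted p = 0.000635), and this held with each array left out. KANK1, a talin-binding adaptor at the rim of adhesions, rose from 5217 ± 385 to 8291 ± 417 with perifosine (0.67, adjusted p = 0.0355). That call was lost when any one of the control or perifosine arrays, sorafenib C, or combination A or B was left out (highest adjusted p = 0.187). Without control C, sorafenib B and combination A together, all 26 calls among these further genes were kept. Little is read from this, because calls over all genes rose in that fit, from 414 to 1304 for the combination against perifosine. With every single array left out, 11 of the 26 were kept.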

How the data were processed

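Gene expression was measured on 12 Illumina bead arrays of HD-MyZ cells. The authors deposited linear intensities, 1 per probe and array, made with BeadStudio per the submitters' processing notes; its version and normalization are not given in the sources used here. From the values, the sorted columns differ by at most 2.35%, as after quantile normalization, and no background was subtracted. A deposited table of signals holds 24 value columns whose names match no sample, and they were not used. Depth has no meaning for these arrays.

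Probes were named through the platform annotation (28098 of 48803 had 1 symbol, 13 had several and 20692 were not named). Each gene was represented by its brightest probe, and 6132 of 18852 genes had more than 1. Positions of the array's probes are left out because their build is not stated. log2 intensities of all 12 arrays were fitted with limma 3.58.1 in R 4.3.3 as 4 group means with empirical Bayes moderation (8 residual and 3.52 prior degrees of freedom). Two-sided p-values were Benjamini-Hochberg adjusted across all genes of each of 6 contrasts, with a threshold of 0.05. The fit was tested on simulated data with noise drawn independently for each gene and array. The simulation held no arrays that stand apart, so it cannot tell how such arrays affect the calls.

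The members, lists and tests were chosen with earlier results of these data known. The 10 genes are all named; of the further adhesion genes those past the threshold are named, at most 8 per comparison by size of change, with LIMS1 under sorafenib added after its value was seen. The likeness lists give the 5 highest correlations. The alternatives were the mean of all probes, normexp correction with offset 50, quantile normalization, a dim-gene filter, the letters as a replicate block, array weights, only the groups compared, no arrays that stood apart, each array left out in turn, and, added later, the second ITGB1 and FERMT3 probes. The letters are not said to mark a shared culture, day or slide, so they were not treated as pairs. Deviations of same-letter arrays correlated at r -0.67 to 0.62 over 18 pairs (median -0.05). Those of other pairs between groups correlated at -0.73 to 0.75 over 36 pairs (median 0.04). Promoter windows are from RefSeq (GRCh38.p14).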

Additional observations from a re-analysis of the deposited data

Results flagged for a closer look

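FERMT1 was singled out because the interaction of the drugs passed the threshold over all genes, at -1.20 on the log2 scale (SE 0.15), with the perifosine difference smaller in the presence of sorafenib. Alone, perifosine gave 7310, 7033 and 8236 beside 3026, 3700 and 3319 in control. In the presence of sorafenib it gave 3202, 3245 and 3256 beside 3197, 3561 and 3155. FERMT1 was chosen on its change under perifosine, so the interaction is a description and no p is attached to it. Its call was kept in 6 of 20 alternatives that could be fitted and lost in 14, the replicate block among them, with the difference between -1.27 and -1.10. The settings that kept it include the mean of probes, quantile normalization and the second ITGB1 and FERMT3 probes, which left the difference at -1.20.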

How the results depend on the processing

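Of the 60 log2 differences (10 genes, 6 comparisons), 44 had no call in any setting, and 24 of these lay on both sides of 0 across settings. For the other 16, of 333 comparisons with an alternative, 295 kept direction and side of the threshold, 24 fell below it, 14 passed it and 0 reversed. Some alternatives could not move a given difference, such as the mean of probes for a single-probe gene or the loss of an array outside the contrast. The 295 are therefore not all separate checks. For perifosine against control, 2 of the 10 genes were called. The count became 1 with the dim-gene filter, which did not test ITGB3, and 4 with array weights or without the 3 arrays that stood apart. For sorafenib against control the count of 1 became 2 with array weights or without those arrays, and 0 when only the compared groups were fitted (LPXN still at -1.53), a fit with fewer samples. For the combination against control, 1 became 2 with array weights or without those arrays. The interaction count of 1 became 0 with normexp, the dim-gene filter, the replicate block or without those arrays. In the main fit the 1 gene was LPXN for sorafenib and for the combination against control, and FERMT1 for the interaction. Both were chosen from these arrays, so nothing is read from how these counts held. Leaving out each array gave 1 to 3, 1 to 3, 1 to 2, 4 to 5, 0 to 0 and 0 to 1 genes for perifosine, sorafenib and the combination against control, the combination against perifosine and against sorafenib, and the interaction. Where no construction is named, the cause was not tested. With the letters as a replicate block the first 5 counts were 2, 1, 1, 5 and 0, as without it. Over all genes, 56, 425, 343 and 414 calls in the first 4 comparisons became 349, 1249, 1181 and 1306 with array weights, 293, 876, 1112 and 1304 without the 3 arrays, 126, 10, 372 and 843 with only the compared groups, and 29, 234, 202 and 315 with normexp. The replicate block gave 37 for perifosine, and array weights turned 3 interaction calls into 15. Leaving out each array gave 11 to 155, 111 to 570, 89 to 1046 and 215 to 1050. Signal near background limits ITGB3 and FERMT3.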

Other observations

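Chosen after their values were seen, 12 results of the further adhesion genes passed only without the 3 arrays that stood apart. ITGA10, an alpha chain of a collagen receptor, then differed from control by 0.50 with perifosine (adjusted p = 0.0273) and by 0.43 with the combination (adjusted p = 0.039). THBS1 was lower with perifosine, at -0.88 (adjusted p = 0.00506). For the combination against perifosine, RASA3, a GTPase-activating protein for RAP1, was lower, at -0.62 (adjusted p = 0.00526) and VASP, an actin polymerisation factor of focal adhesions, at -0.54 (adjusted p = 0.0108).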
